A study of Mus musculus with 13 samples.

Results

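Cd8a, Ptprc, Thy1 and Cd44 are 4 genes of surface proteins by which lymphocytes are commonly recognised. They were taken by gene name from a table of 94 genes measured by quantitative PCR in single mouse CD8+ T cells, and all 4 were found, each with 1 TaqMan assay. Cd8a (assay Mm01182107_g1) encodes the alpha chain of the CD8 coreceptor, Ptprc (Mm01293575_m1) the receptor phosphatase CD45, Thy1 (Mm00493682_g1) a small glycolipid-anchored protein, and Cd44 (Mm01277163_m1) a receptor for hyaluronan. In the maker's naming, the probe of an m1 assay spans an exon junction, and a g1 assay may also detect genomic DNA. None of the sources used here gives the sequences that the assays amplify.

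The CD8 coreceptor binds the same class I major histocompatibility molecule as the T cell receptor and brings the kinase Lck to it. CD45 removes an inhibitory phosphate from Lck and is found on all nucleated blood cells. Thy1 is a general marker of mouse T cells, and CD44 is raised on the surface of T cells that have met antigen and stays high on memory cells.

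All cells carried the OT-1 T cell receptor transgene, which recognises ovalbumin, and the donor allele of CD45 (CD45.1), and came from the spleen (strain C57BL/6J). Naive cells were unactivated (149 cells, day 0). The other 12 populations had been activated in vivo by recombinant Listeria monocytogenes that makes ovalbumin, of which congenic CD45.2 recipients were given 5000 colony-forming units one day after cell transfer. At day 2 these were cells after the first division (144, from 2000000 transferred cells labelled with the dye CFSE) and cells called proximal (83) and distal (48) daughters. At day 3 they were bulk cells (143, from 20000 transferred). From 5000 transferred cells came, at day 5, bulk cells (154), memory precursors (Tmp, 90) and short-lived effectors (Tsle, 79), at day 7 the same kinds (134, 62 and 89), and at day 45 the memory cells called central (Tcm, 138) and effector (Tem, 136). The number transferred is not stated for the naive, proximal and distal cells, and among the others it cannot be told apart from the day. Each population is 1 sample, the number of mice is not given, and cells are not replicates, so the comparisons have no test and no p-value. The cells were stained for CD8 and CD44 proteins before sorting, so the products of Cd8a and Cd44 may have been part of how cells were chosen, and the gates are not stated. CD45.1 and CD45.2 are allelic forms of the Ptprc protein, and whether the Ptprc assay tells them apart is not stated.

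The deposited values are on the log2 scale of PCR cycles, and a value of exactly 0 stands for no detection. The labels call them Ct, but the assays of the most abundant RNAs had the highest values, so more RNA gives a higher value, read here as 40 minus Ct. A share below is the percentage of a population's cells with a value above 0, with its exact (Clopper-Pearson) 95% interval, which covers counting error only. The median value is taken over those cells alone. The columns of each population were also split into 2 equal parts in file order, called earlier and later columns, which show how far 1 sample differs from itself. Per cell, from 11 (median in Tem) to 19 (at day 5) assays were above 0, the median of Actb (beta-actin) ran from 17.1 in Tem to 22.2 in day 5 Tsle, and that of R18s (18S ribosomal RNA) ran from 25.2 in distal to 28.8 in day 7 cells. Of the other genes of a list of CD8 T cell markers, Tcf7 was above 0 in 713 cells (49.2%), Cd28 in 470 (32.4%), Lef1 in 145 cells and Bcl11b in 43 (2.97%). Of markers of other T cells, Cd4 was above 0 in 2 of 1449 cells and Foxp3 in 2 (each 0.138%, 0.0167 to 0.498%). Cd8a was found in 0 of the 2 Cd4 cells and in 1 of the 2 Foxp3 cells, where 52.0% of all cells lacked it. Gata3, a factor of helper T cells that CD8 cells can also express, was found in 53 cells (3.66%), of which 28 had Cd8a. Markers of myeloid or B cells were not analysed here.

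Of the 4 genes, Ptprc was found in nearly every cell, Cd8a in 48.0% of cells (696 of 1449, 45.4 to 50.6%), Thy1 in 38.4% (557, 35.9 to 41.0%) and Cd44 in 3.24% (47, 2.39 to 4.29%). Ptprc was above 0 in 1367 cells (94.3%, 93.0 to 95.5%). The transcript of the coreceptor was thus not detected in 753 cells, all of which the labels call CD8+ T cells. Among cells with a value, the medians over all cells were 16.5 for Ptprc, 15.5 for Cd8a, 14.2 for Cd44 and 13.8 for Thy1, which cannot be ordered as amounts because different assays were read.

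**Figure D1:**
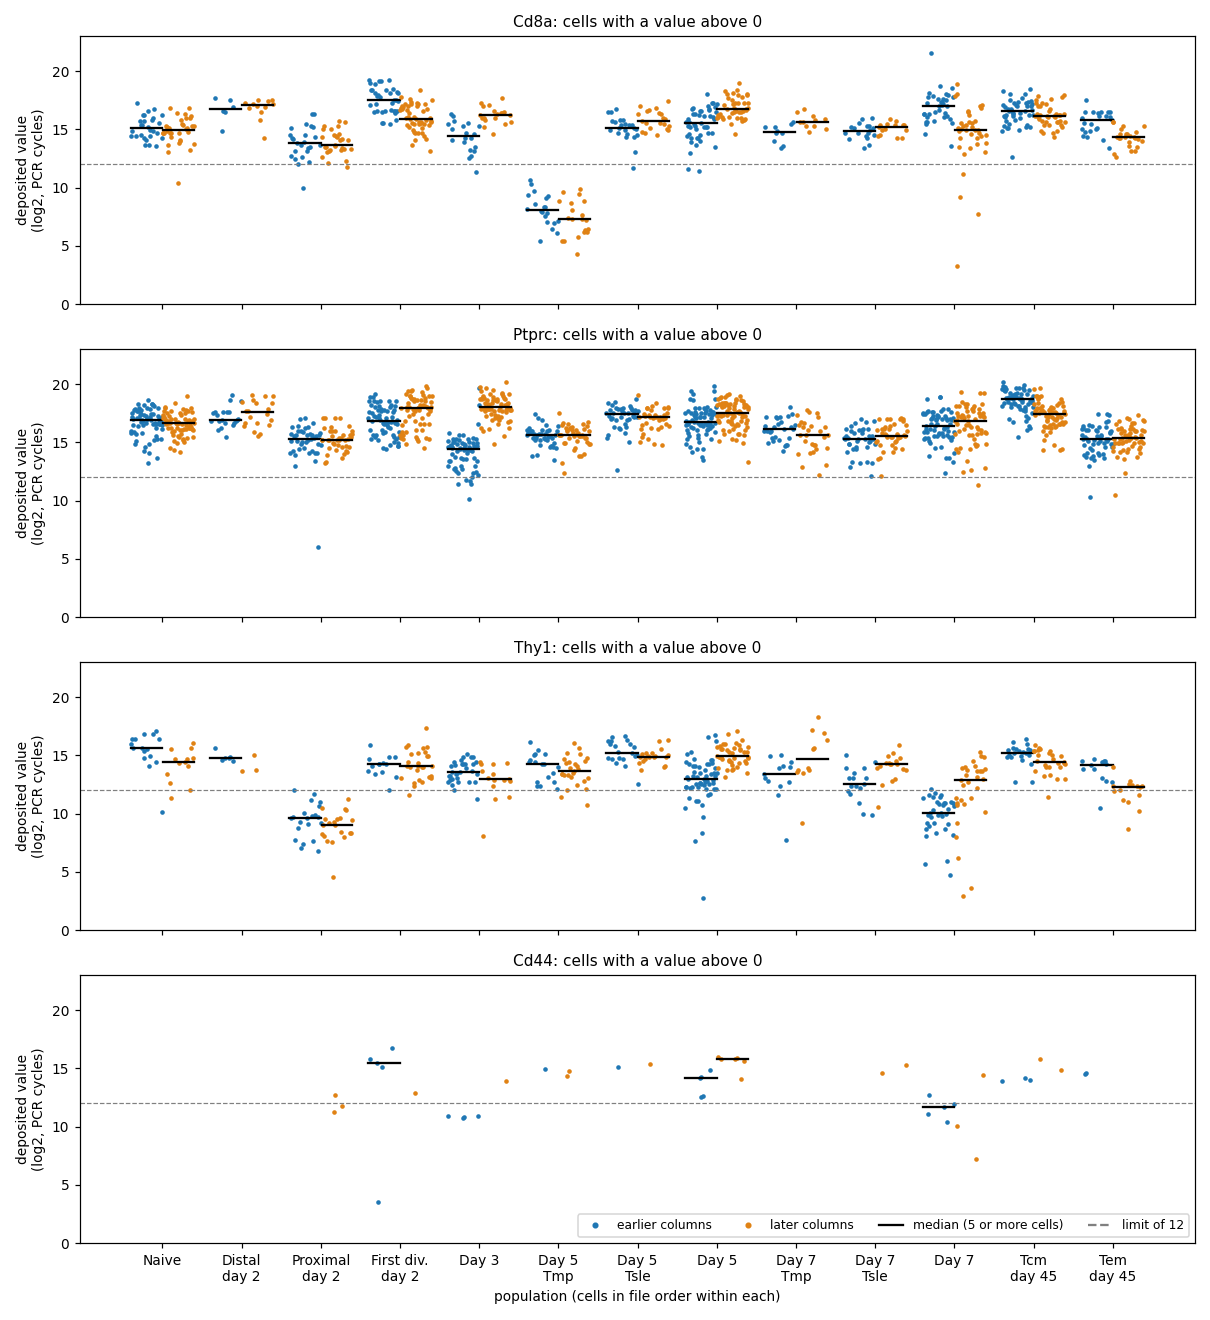
Deposited value (y axis, log2 scale of PCR cycles) of Cd8a, Ptprc, Thy1 and Cd44 in each cell with a value above 0, for the 13 populations (x axis, cells in file order; blue earlier and orange later columns; black lines medians of 5 or more cells; dashed line the limit of 12). Cd8a in day 5 Tmp lies at a median of 7.78, Thy1 in proximal cells at 9.30, and Ptprc at day 3 at 14.4 in earlier and 18.0 in later columns.

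Cd8a was found most often in proximal daughters, at 65.1% of cells (53.8 to 75.2%), and least often at day 3, at 27.3% (20.2 to 35.3%). Tcm had 62.3% (53.7 to 70.4%), first-division cells 60.4% (51.9 to 68.5%), day 5 cells 57.8% (49.6 to 65.7%), day 5 Tsle 55.7% (44.1 to 66.9%) and day 7 cells 55.2% (46.4 to 63.8%). In these 6 populations more cells had the coreceptor transcript than lacked it. The lower 7 were day 5 Tmp with 44.4% (34.0 to 55.3%), naive cells with 41.6% (33.6 to 50.0%), distal daughters with 37.5% (24.0 to 52.6%), day 7 Tsle with 37.1% (27.1 to 48.0%), Tem with 36.0% (28 to 44.7%), day 7 Tmp with 33.9% (22.3 to 47.0%) and day 3. Every neighbouring pair in this order overlapped in its intervals, while the interval of day 3 lay wholly below those of the upper 6 populations. The share at day 3 was alike in earlier (27.8%) and later (26.8%) columns, and the largest gaps between parts were in distal (25 and 50.0%) and first-division cells (50.0 and 70.8%).

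Where Cd8a was detected, its value was high in distal daughters (lowest 14.3, median 17.0, highest 17.7), in which it was found seldom, and low in proximal daughters (9.98, 13.8 and 16.4), in which it was found most often. Share and value therefore pointed in opposite directions between the daughters of 1 division. Naive cells had a median of 15.0 (10.4 to 17.3), first-division cells 16.6 (13.2 to 19.2), day 3 cells 15.5 (11.3 to 17.7), day 5 cells 16.2 (11.4 to 18.9), day 7 cells 16.0 (3.27 to 21.5), Tcm 16.3 (12.7 to 18.5) and Tem 14.7 (12.6 to 17.5). The sorted effector and precursor populations had medians of 15.4 (day 5 Tsle, 11.7 to 17.5), 15.3 (day 7 Tmp, 13.4 to 16.8) and 15.0 (day 7 Tsle, 13.4 to 16.0). Within a population the earlier and later medians differed by 0.741 cycles at the middle of the 13 populations and by up to 2.03 at day 7 (17.0 and 15.0), and by at least 1 cycle in 5 of them, so gaps of that size between populations are no larger than those within 1 sample.

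Day 5 Tmp stood apart from this range. Cd8a was found in 40 of its 90 cells, a share like that of naive cells, but every one of these values was low, from 4.29 to 10.7 with a median of 7.78. The earlier columns (8.08) and the later ones (7.34) were alike, each with 20 of 45 cells. Against bulk day 5 cells the median differed by -8.46 cycles, and of the 52 genes with at least 5 detected cells in each population Cd8a was the one gene at least 4 cycles lower, where the median over genes was -0.16. Against day 5 Tsle the difference was -7.63 cycles, again with no other of 38 genes at least 4 cycles lower. In the same Tmp cells Ptprc had a median of 15.7 and Actb 20.6, inside the range of the other populations.

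Ptprc was the gene found in most cells of every population. It was above 0 in all 79 day 5 Tsle cells (95.4 to 100%), in 99.4% at day 5 (96.4 to 100%), 98.8% of proximal daughters (93.5 to 100%), 97.8% of day 5 Tmp (92.2 to 99.7%) and 97.0% at day 7 (92.5 to 99.2%). Then came Tcm with 95.7% (90.8 to 98.4%), day 3 with 94.4% (89.3 to 97.6%), naive cells with 94.0% (88.8 to 97.2%), first-division cells with 93.8% (88.5 to 97.1%), day 7 Tmp with 93.5% (84.3 to 98.2%) and day 7 Tsle with 91.0% (83.1 to 96.0%). Neighbours in this order overlapped in their intervals, so the order of these 11 is not settled. Distal daughters (85.4%, 72.2 to 93.9%) and Tem (83.1%, 75.7 to 89.0%) had the lowest shares, and the interval of Tem lay below those of the 7 highest populations. Tem and distal cells also had the lowest Actb medians (17.1 and 18.2) and few assays above 0 per cell (medians 11 and 12). Naive cells had a median of 12 assays as well, with Ptprc in 94.0% of cells and an Actb median of 19.3. The part of Actb or of the number of assays in the lower Ptprc shares was not tested.

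The value of Ptprc in cells that had it was highest in Tcm (lowest 14.3, median 18.0, highest 20.2) and lowest in proximal daughters (6.00, 15.2 and 17.1) and Tem (10.3, 15.3 and 17.4). First-division cells had a median of 17.4, day 5 cells 17.3, day 5 Tsle 17.2, distal daughters 17.2, naive cells 16.7, day 7 cells 16.6, day 3 cells 16.2, day 7 Tmp 16.0, day 5 Tmp 15.7 and day 7 Tsle 15.5. Tcm and Tem, the memory populations, were thus near opposite ends, and each part of Tcm (18.7 earlier, 17.4 later) lay above each part of Tem (15.3 and 15.3). The day 3 median joins parts that were 3.62 cycles apart, 14.4 in earlier and 18.0 in later columns, with close shares (93.1 and 95.8%). In those parts R18s had medians of 26.2 and 27.1, Actb 19.0 and 19.6 and Gapdh 13.8 and 15.6, each lower in the earlier columns and by less than Ptprc. The middle gap between parts over all populations was 0.434 cycles, and 3 populations had a gap of at least 1 cycle.

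Thy1 was found in fewest cells among distal, naive and Tem cells and in most at day 5. The shares were 18.8% in distal (8.95 to 32.6%), 19.5% in naive (13.4 to 26.7%), 20.6% in Tem (14.1 to 28.4%), 29.2% in first-division cells (21.9 to 37.3%), 32.9% at day 3 (25.2 to 41.2%) and 34.8% in Tcm (26.9 to 43.4%). They were 39.3% in day 7 Tsle (29.1 to 50.3%), 40.3% in day 7 Tmp (28.1 to 53.6%), 49.4% in Tsle of day 5 (37.9 to 60.9%), 50.0% in day 5 Tmp (39.3 to 60.7%) and day 7 cells (41.2 to 58.8%), 50.6% in proximal daughters (39.4 to 61.8%) and 65.6% at day 5 (57.5 to 73.0%). All neighbours overlapped in their intervals, but the interval of naive cells lay wholly below those of Tcm, proximal cells and each of the day 5 and day 7 populations. Counting only values above 12, the shares were 18.1% in naive, 1.20% in proximal and 14.9% in bulk day 7 cells, so proximal and bulk day 7 cells then lay below naive. The rest of these populations stayed above naive cells, from 32.6% in day 7 Tsle to 58.4% at day 5. The parts differed by more than 20 points in 2 populations: 44.4 and 21.1% in the earlier and later day 3 columns, and 76.6 and 54.5% in those of day 5. The lowest day 5 part was above the highest day 3 part. Over the cells of all 12 activated populations, 40.6% had Thy1 (528 of 1300).

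Tmp and Tsle did not differ in Thy1 share beyond the intervals at either day. In cells with the transcript, the medians were 15.0 in Tcm, 15.0 in day 5 Tsle, 14.9 in naive, 14.8 in distal, 14.1 in first-division, 14 in day 5, 14 in day 5 Tmp, 13.9 in Tmp of day 7, 13.8 in Tsle of day 7, 13.4 in day 3 and 12.6 in Tem cells. Proximal daughters (lowest 4.55, median 9.30, highest 12) and bulk day 7 cells (2.92, 10.9 and 15.3) were below all of these. In proximal cells 41 of 42 values lay at or below 12, in the earlier and later columns alike (medians 9.66 and 9.05). At day 7 the earlier columns had a median of 10.1 and 35 of 36 values at or below 12. The later ones had 12.9 and 12 of 31, with the lowest day 7 value (2.92) among them. The shares of these parts were 53.7 and 46.3%. The proximal median differed from that of first-division cells by -4.82 cycles, where 1 other of 53 genes, Cd28, was at least 4 cycles lower and the median over genes was -1.43.

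Cd44 was detected in 0 of 149 naive cells, which allows a share of up to 2.01% (3 cells of 149), and in 47 of the 1300 cells of the other populations (3.62%, 2.67 to 4.78%). It was also at 0 in the 48 distal (up to 6.25%) and 62 day 7 Tmp cells (up to 4.84%). The highest shares were 7.14% at day 5 (11 of 154, 3.62 to 12.4%), 5.97% at day 7 (8 of 134, 2.61 to 11.4%) and 4.17% in first-division cells (6 of 144, 1.54 to 8.85%). The intervals of day 5 and day 7 alone lay wholly above that of naive cells, whose exact interval, wider than the 3-cell limit, ran from 0 to 2.45%. Tcm had 5 cells (3.62%), day 3 had 5 (3.50%), proximal and day 5 Tmp had 3 each (3.61 and 3.33%), and day 5 Tsle, day 7 Tsle and Tem had 2 each (2.53, 2.25 and 1.47%). At such counts the populations other than naive cannot be set in an order, and a population's few cells could lie in 1 part, as all 3 of the proximal cells (later columns), 5 of the 6 first-division cells and 4 of the 5 day 3 cells (earlier columns) did. The memory populations, Tcm and Tem, thus had Cd44 no more often than the bulk cells of day 5, with intervals that overlapped.

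The few Cd44 values were not uniformly weak. The 11 at day 5 ran from 12.6 to 16.0 with a median of 14.9, and the 5 in Tcm from 13.9 to 15.8. Those of day 3 had a median of 10.9 (10.8 to 13.9) and those of day 7 of 11.4 (7.22 to 14.4), where most lay at or below 12 (4 of 5 and 6 of 8). In all, 13 of the 47 values were at or below 12. Of the cells with Cd44, 61.7% also had Cd8a (29 of 47) against 47.6% of those without it, 91.5% had Ptprc against 94.4%, and 40.4% had Thy1 against 38.4%. These percentages pool populations, and naive, distal and day 7 Tmp cells, among those with the lower Cd8a shares, had no Cd44. No day 3 cell with Cd44 had Cd8a (0 of 5), against 28.3% of those without Cd44. Each of the 5 Tcm cells with Cd44 had Cd8a, against 60.9% of those without. Cd8a was also more frequent with Cd44 in first-division (66.7 against 60.1%) and day 5 cells (72.7 against 56.6%). It was less frequent at day 7 (37.5 against 56.3%). These gaps rest on 5 to 11 cells with Cd44. Cells with Cd44 had a median of 16 other assays above 0, the 4 genes left out, against 13 for cells without it, but within the 5 populations with at least 5 such cells the number was higher in 3 and lower in 2 (first-division cells, 15.5 against 16, and Tcm, 13 against 15).

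**Figure D2:**
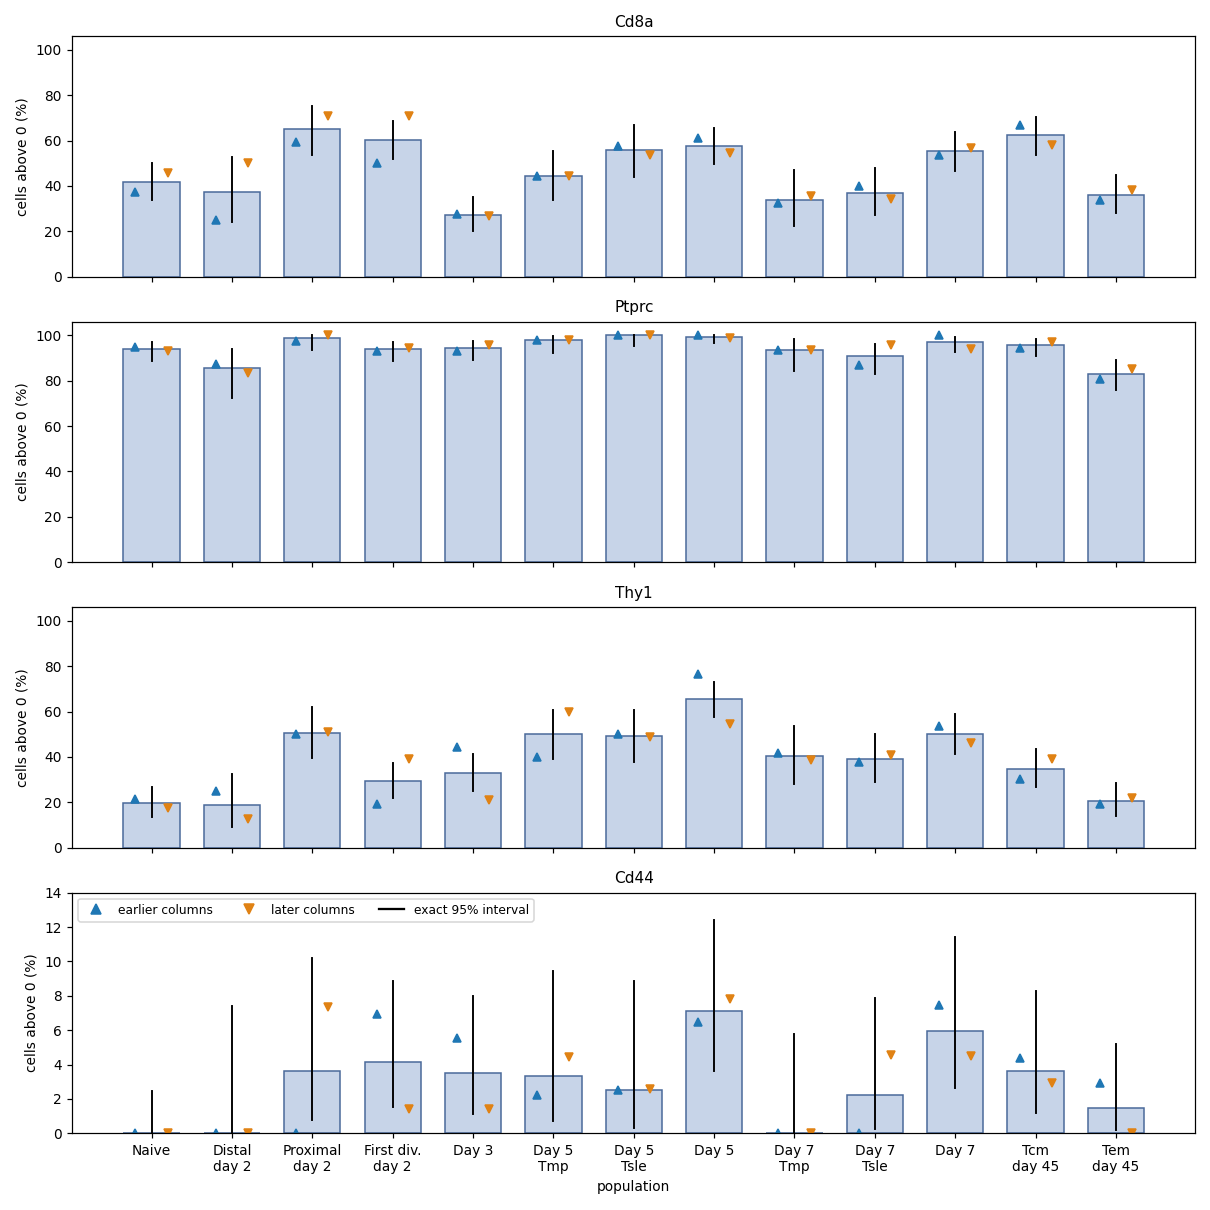
Share of cells above 0 (y axis, percent; the Cd44 panel has its own scale) in the 13 populations (x axis). Bars give all cells, black lines the exact 95% interval, and triangles the earlier and later columns. Ptprc lies between 83.1 and 100%, Cd8a between 27.3 and 65.1%, Thy1 between 18.8 and 65.6%, and Cd44 between 0 and 7.14%.

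For comparisons between populations a level was used, the number of cycles above a detection limit of Ct 28 (a value of 12), averaged over all cells with the others at 0. A gene was counted when 2 populations were at least 1 cycle apart in level, or at least 20 percentage points apart in share. All 94 genes were counted by the same rules, and their percentages stand beside the counts as background. Ranges after a difference are those over the 4 pairings of earlier and later columns. Comparisons with naive cells share those cells. As other genes of the cell surface, a list of 15 measured receptors was counted beside the 4 genes, also by share.

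In first-division cells Cd8a was above naive by 1.52 cycles (2.78 against 1.26, range 1.40 to 1.64), and no other of the 4 genes reached 1 cycle, beside 12.8% of all genes. Actb was higher by 1.14 and Gapdh, a glycolytic enzyme, by 1.51 cycles in the same comparison, and with each cell centred on R18s and Actb 0 of the 4 genes reached 1 cycle (Cd8a at 0.49). Centred on Actb and Gapdh, Cd8a was at 0.20 cycles, and Thy1 (-1.26) and Cd44 (-1.21) were past 1 cycle instead. Centring subtracts the reference level from cells at 0 as well. The values of Thy1 and Cd44, missing in most cells, thus take on the reference difference with its sign turned. By share 0 of the 4 reached 20 points, beside 13.8% of all genes, with Cd8a at 18.8 points. Of the 15 receptors 4 were higher and 2 lower, led by Il2ra (45.1 against 4.70%), a chain of the interleukin-2 receptor, and Il2rb (50.0 against 19.5%), another.

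At day 3 none of the 4 genes was 1 cycle from naive (7.45% of all genes) or 20 points from it (12.8%). Cd8a was lower by 14.3 points (27.3 against 41.6%) and -0.37 cycles, the lowest Cd8a share of all populations. The Ptprc difference of -0.48 cycles ran from -2.41 to 1.49, so its direction was not settled. Thy1 differed by 13.4 points and -0.08 cycles. The receptors had 2 higher, among them Il2ra (50.3 against 4.70%), and 2 lower.

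At day 5 Cd8a was 1.11 cycles above naive (2.37 against 1.26, range 0.76 to 1.45), 1 of 4 genes beside 13.8% of all genes, and Thy1 was 46.1 points above it (range 33.2 to 59.1), 1 of 4 beside 17.0%. In level Thy1 differed by 0.73 cycles and Ptprc by 0.70, and Actb by 1.68. With each cell centred on Actb and Gapdh, or on R18s and Actb, or with a limit of Ct 26, 0 of the 4 genes reached 1 cycle. In cells that had Thy1, the day 5 median was below that of naive cells in the earlier columns (12.9 against 15.7) and above it in the later ones (14.9 against 14.4). Of the receptors 5 were higher, led by Cxcr3 (68.8 against 5.37%), a chemokine receptor, and 3 lower.

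Against day 3, day 5 cells had more Cd8a, by 1.47 cycles (0.97 to 1.97) and 30.5 points (26.8 to 34.3), and more Thy1, by 32.7 points (10.1 to 55.5). With Ptprc at 1.17 cycles, 2 of the 4 genes reached 1 cycle, beside 17.0% of all genes, and 2 reached 20 points, beside 22.3%. The Ptprc difference ran from -0.94 to 3.26 cycles and was reversed in the later columns alone (-0.43) and when centred on R18s and Actb (-0.19). Actb was higher at day 5 by 1.68 cycles, and 0 of the 4 genes reached 1 cycle when centred on Actb and Gapdh. The receptors had 4 higher, led by Cxcr3 (68.8 against 6.29%), and 2 lower.

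At day 7 none of the 4 genes was 1 cycle from naive (5.32% of all genes), with Cd8a at 0.89 cycles, and Thy1 was found more often by 30.5 points (24.9 to 36.2), 1 of 4 beside 13.8%. Its level was lower by -0.33 cycles, since 47 of its 67 values at day 7 lay at or below the limit. Past that limit the direction of the share turned, with Thy1 in 14.9% of day 7 and 18.1% of naive cells. Against day 5, Thy1 was lower by -1.06 cycles (-1.65 to -0.47), 1 of 4 beside 9.57%, and by -15.6 points, and 0 of 4 reached 20 points, beside 5.32%. With a limit of Ct 26, centred on Actb and Gapdh, or in the earlier columns alone, 0 of 4 reached 1 cycle. Cd8a differed by -0.22 cycles and -2.57 points between these days. Against naive 5 receptors were higher, led by Klrc1 (32.1 against 0%), an inhibitory natural killer cell receptor, and 2 lower, while against day 5 none was higher and 4 were lower, led by Cxcr3 (37.3 against 68.8%).

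Central memory cells had more Cd8a and Ptprc than naive cells. Cd8a was higher by 1.43 cycles (2.69 against 1.26, 1.07 to 1.79) and Ptprc by 1.27 (5.63 against 4.36, 0.68 to 1.87), so 2 of 4 genes reached 1 cycle beside 8.51% of all genes. By share, Cd8a alone reached 20 points (20.7, range 12 to 29.3), 1 of 4 beside 11.7%. Actb was also higher, by 1.58 cycles, and R18s was not (-0.41). Centred on either pair of reference assays, 0 of the 4 genes reached 1 cycle. The receptors had 5 higher, led by Cxcr3 (61.6 against 5.37%), and 1 lower, Ccr7 (11.6 against 34.9%), a chemokine receptor of lymph node homing.

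Effector memory cells had less Ptprc than naive cells, by -1.63 cycles (2.73 against 4.36, -1.85 to -1.40), 1 of 4 genes beside 7.45% of all genes, and 0 of 4 reached 20 points, beside 10.6%. Cd8a (-0.22 cycles, -5.58 points) and Thy1 (-0.36 cycles, 1.13 points) were less than 1 cycle and 20 points from naive. Actb and R18s were lower by -2.05 and -1.94 cycles, and the Ptprc difference turned to 0.37 when centred on R18s and Actb and was -0.25 on Actb and Gapdh. Centred in these ways Cd8a was above naive by 1.78 and 1.15 cycles, and Thy1 by 1.64 and 1.02. Centring subtracts the reference level, lower in Tem, from cells at 0 as well, and 64.0% of Tem cells lacked Cd8a and 79.4% Thy1. These centred values therefore do not show more of either transcript in Tem. The receptors had none higher and 2 lower, among them Ccr7 (4.41 against 34.9%).

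Between the memory populations, each of the 4 genes had the lower level in Tem. Ptprc differed by -2.90 cycles (-3.51 to -2.29) and Cd8a by -1.65 (-2.10 to -1.20), 2 of 4 beside 12.8% of all genes, and Cd8a by -26.3 points (36.0 against 62.3%, -32.8 to -19.7), 1 of 4 beside 12.8%. Thy1 differed by -0.73 cycles and -14.2 points, and Cd44 by -0.05 cycles. The difference in Actb was larger than that in any of them, -3.63 cycles, and R18s differed by -1.53. When each cell was centred on Actb and Gapdh, the Cd8a difference turned to 0.34 cycles and that of Ptprc was -0.91. On R18s and Actb they were 0.93 and -0.32, so neither gene was 1 cycle lower in Tem under either centring. Thy1 (1.26 and 1.85) and Cd44 (1.93 and 2.52) then passed 1 cycle with Tem higher. Centring subtracts the reference level from cells at 0 as well, so a gene found in few cells takes on the reference difference with its sign turned. Cd8a was missing in 64.0% of Tem and 37.7% of Tcm cells, so its centred values cannot decide whether its call holds. In cells that had Cd8a, the medians differed by -1.52 cycles. None of the receptors was higher in Tem and 6 were lower, among them Il2rb (20.6 against 63.0%).

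Proximal daughters had Thy1, Cd8a and Ptprc above 0 in more cells than distal daughters, while the mean levels above the limit were lower. The gaps in share were 31.9 points for Thy1 (25 to 38.7), 27.6 for Cd8a (9.52 to 45.7) and 13.4 for Ptprc (10.1 to 16.7), so that 2 of 4 genes reached 20 points beside 8.51% of all genes. Past the limit of Ct 28 the direction turned for Thy1, found in 1.20% of proximal and 18.8% of distal cells. It stayed for Cd8a (61.4 and 37.5%) and Ptprc (97.6 and 85.4%). The level differences were -1.35 cycles for Ptprc (-1.45 to -1.25), the 1 of 4 genes past 1 cycle beside 5.32%, -0.55 for Cd8a (-1.25 to 0.16) and -0.49 for Thy1 (-0.72 to -0.27). In cells with the transcript the medians differed by -1.94 (Ptprc), -3.21 (Cd8a) and -5.51 cycles (Thy1). Over the 33 genes with at least 5 detected cells in both daughters the median difference was -1.79 cycles, close to that of Ptprc. Thy1 was among the 3 genes at least 4 cycles lower. Actb was 1.85 and Gapdh 1.41 cycles higher in proximal cells, and the assays above 0 were more (18 against 12). Without a detection limit all 3 level differences turned, to 2.73 cycles for Cd8a, 1.89 for Thy1 and 0.18 for Ptprc. Of the receptors 4 were higher in proximal cells, led by Cxcr3 (48.2 against 4.17%), and none lower.

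At day 5, Tsle had more Cd8a than Tmp by 1.91 cycles (1.77 to 2.06) and more Ptprc by 1.59 (1.49 to 1.69), 2 of 4 genes beside 6.38% of all genes, and 0 of 4 reached 20 points, beside 5.32%. Centred on Actb and Gapdh the differences were 1.05 for Cd8a and 0.73 for Ptprc, and on R18s and Actb 0.87 and 0.55, and with a limit of Ct 26 Cd8a was at 0.84. The Cd8a level of Tmp was 0.00 because all its values lay below the limit, and the shares were 11.3 points apart (55.7 and 44.4%). Thy1 differed by 0.61 cycles and -0.63 points. Actb was higher in Tsle by 1.52 cycles and R18s by 0.56. At day 7 none of the 4 genes reached 1 cycle between Tsle and Tmp (4.26% of all genes) or 20 points (5.32%): Cd8a differed by 0.00 cycles, Ptprc by -0.49 and Thy1 by -0.31. The receptors had 1 higher and 1 lower at each day, Klrg1, a receptor of short-lived effectors, being higher (40.5 against 1.11% at day 5 and 28.1 against 0% at day 7), and Cd28 (24.1 against 55.6%) or Cxcr3 (27.0 against 62.9%) lower. The gates by which Tmp and Tsle were sorted are not stated.

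**Figure D3:**
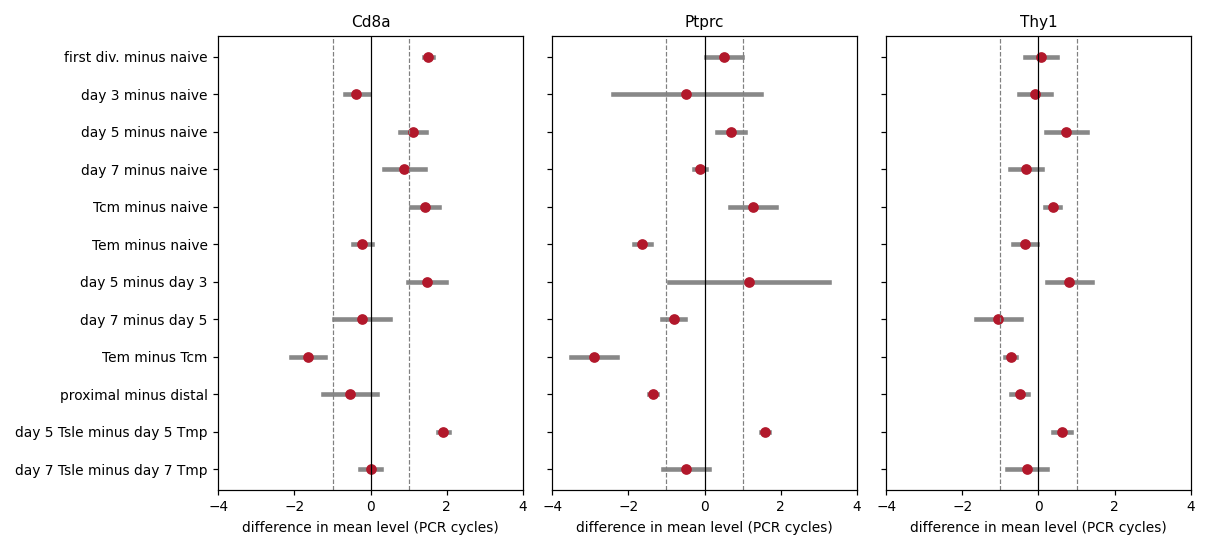
Difference in mean level (x axis, PCR cycles, first population minus second) of Cd8a, Ptprc and Thy1 in the 12 comparisons (rows). Red points are all cells and grey bars the range over the 4 pairings of earlier and later columns; dashed lines mark 1 cycle. Tem minus Tcm is the lowest value of Ptprc (-2.90), and the bars of Ptprc that involve day 3 cross 0.

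Detection of the 3 common transcripts in the same cell was counted next. Over all cells 20.1% had Cd8a, Ptprc and Thy1 together (291 of 1449), 43.8% had 2 of them, 33.1% had 1 and 3.11% had none (45 cells). All 3 were found together most often at day 5 (36.4%) and in proximal daughters (36.1%), and least often in Tem (4.41%), at day 3 (7.69%), in distal daughters (10.4%) and in naive cells (10.7%). In proximal daughters 41 of the 42 Thy1 values lay at or below 12, so their share rests on such low values. Past that limit Thy1 was found in 1.20% of proximal cells and in 58.4% of day 5 cells. No day 5 or day 5 Tsle cell lacked all 3, while 14 of 136 Tem cells (10.3%) and 4 of 48 distal cells (8.33%) did. The 45 cells had a median of 9 assays above 0 and an Actb median of 17.6, against 15 and 20.1 in the others. Their R18s, with a median of 25.7 against 27.4, was nonetheless detected.

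Cd8a and Thy1 were found together in 294 cells, 20.3% of all, where the product of their shares is 18.5%. Thy1 was more frequent among cells with Cd8a than among those without it in 9 of 13 populations. The gap was wide in naive cells (27.4 against 13.8%) and day 5 Tsle (59.1 against 37.1%). Counted among the 9, but almost without a gap, were Tcm (34.9 against 34.6%) and day 7 Tsle (39.4 against 39.3%). The gap was absent at day 7 (50.0 and 50.0%). It was turned round in Tem (14.3 against 24.1%), at day 3 (28.2 against 34.6%) and at day 5 (62.9 against 69.2%). The share of cells with both lay furthest from the product of the shares in day 5 Tsle (32.9 against 27.5%).

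**Figure D4:**
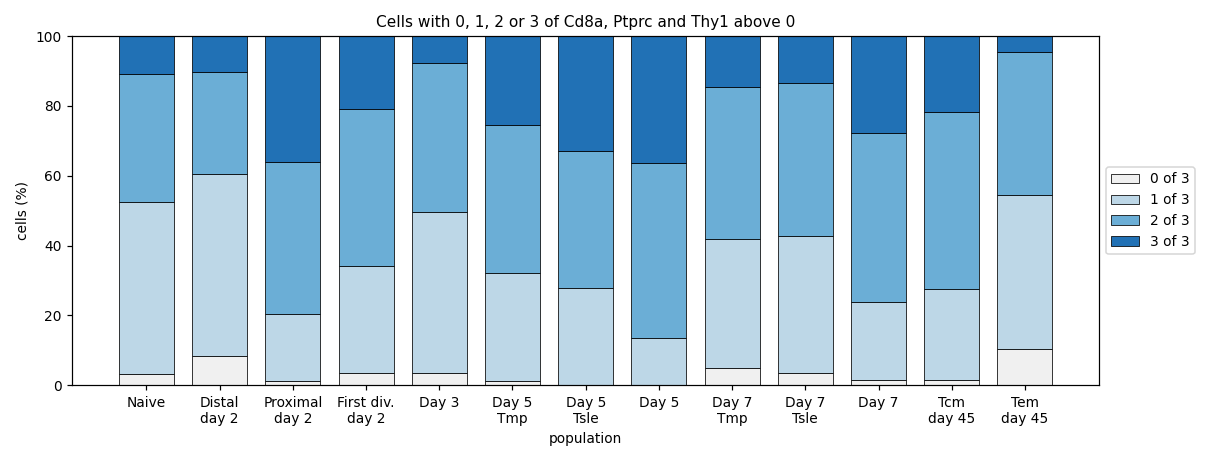
Percentage of cells (y axis) in each population (x axis) with 0, 1, 2 or 3 of Cd8a, Ptprc and Thy1 above 0. Cells with all 3 make up 36.4% at day 5 and 4.41% in Tem, and cells with none 10.3% in Tem.

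Cells without a transcript were then set beside those with it in the same population. For Cd8a, cells that had it had the higher Actb median in 12 of 13 populations, by 0.29 cycles at the middle (-0.13 to 0.73), and a higher median number of other assays in 9 and an equal one in 4. The widest gap was in first-division cells, 17 against 13 other assays. For Thy1 the Actb median was higher in 8 of 13 populations (0.19 cycles at the middle, -0.34 to 1.03) and the other assays in 9, and again first-division cells had the widest gap (21 against 15). Ptprc could be set out so in the 7 populations with at least 5 cells lacking it: other assays were more in 6, by up to 5, but Actb was higher in 3 and lower in 4. The 23 Tem cells without Ptprc had an Actb median of 17.2, and the 113 with it 17.1. In populations with fewer than 5 cells lacking Ptprc, those cells had the lower Actb median: 12.4 against 20.2 at day 7 (4 cells), 16.7 against 19.9 in day 7 Tmp (4), 18.9 against 20.6 in day 5 Tmp (2), 14.6 against 20.0 in proximal (1) and 20.3 against 20.9 in day 5 cells (1). Over all cells Actb was 18.5 without Ptprc and 20.1 with it.

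By the share of cells over the 13 populations, the genes most like Cd8a were Mapk14, a stress kinase (Spearman rho 0.80), Eomes, a T-box factor (0.74), and Il2rb, a receptor chain of interleukin-2 and interleukin-15 (0.63), among 56 genes found in at least 5% of all cells. Ptprc was most like Thy1 (0.77), Foxo1, a forkhead factor (0.75), and Il2rb (0.75). Thy1 was most like the costimulatory receptor Cd28 (0.87), the kinase gene Mapk3 (0.86) and Cxcr3 (0.79). Cd44 was most like Il2rb (0.74), Mapk14 (0.67) and Foxo3 (0.66), among 57 genes, on counts of 0 to 11 cells. The points of a gene pair share their cells, and the share of each of the 4 genes also followed the number of assays found per cell (its median), with rho of 0.77 (Cd8a), 0.76 (Ptprc), 0.69 (Thy1) and 0.87 (Cd44).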

How the data were processed

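Single cells were sorted into a reverse transcription and preamplification mix with pooled TaqMan assays, amplified for 18 cycles, diluted 5-fold and read on Fluidigm arrays, per the labels' protocols. The deposited table holds 95 assay rows (94 genes, Il2 by 2 rows, averaged here) and 1449 cells, with columns named by population alone. Its deposited values are log2 amounts on the scale of PCR cycles, which the labels call Ct and not normalized; 83.4% were exactly 0, and the others ran from 1.01 to 35.0. The offset of 40 is inferred, not stated. None of the sources used here gives the array of each cell or a filter on cells. Of the rows, 93 matched the mouse RefSeq table (GRCm38.p6) by accession, which was used for names only, without coordinates, since the authors name no build. No 2 cells held the same values.

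The 4 genes, lists, limits and comparisons were chosen with earlier results of these data known. Besides the 4 genes, the text names Actb, Gapdh and R18s, the T cell markers of those lists, receptors among the furthest apart in each comparison (at most 2 in 1 direction, some added after their values were seen; 1 listed gene is counted but not reported here) and the 3 genes most alike in share. With 1 sample per population no test was run. Cells per population, 48 to 154, limit the precision. Where no cell had a transcript, 3 cells of the population set the upper limit, 1.95% for 154 cells and 6.25% for 48. The alternatives were a limit of Ct 26 or none, cells with at least 10 assays above 0, centring on Actb and Gapdh or on R18s and Actb, detected cells alone (at least 5 per population), shares past the limit of 28, and the earlier or later columns alone. The work was done in Python 3.11.15 with scipy 1.17.1, numpy 2.4.6 and, for plots, matplotlib 3.10.9.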

Additional observations from a re-analysis of the deposited data

Results flagged for a closer look

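The difference between Tsle and Tmp had opposite directions at days 5 and 7 in 3 of the 4 genes. Ptprc was higher in Tsle at day 5 (1.59 cycles) and lower at day 7 (-0.49), Thy1 was 0.61 and -0.31, and Cd44, found in at most 3 cells of any of these populations, -0.01 and 0.07. The change of direction itself was not tested, since each population is 1 sample. The day 7 differences of Ptprc and Thy1 lay within the range of pairings of earlier and later columns that included 0 (-1.10 to 0.13 and -0.83 to 0.22). Centred on Actb and Gapdh, Thy1 was lower in Tsle at days 5 and 7 (-0.25 and -0.71), and so was Cd44 (-0.86 and -0.34). Centred on R18s and Actb, Thy1 was again lower at days 5 and 7 (-0.43 and -0.09). Centring subtracts the reference level from cells at 0 as well, and Thy1 was missing in 50.0 to 60.7% of the cells of these populations. The centred values therefore cannot decide whether Thy1 or Cd44 changed direction.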

How the results depend on the processing

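Depth is set by cells per population and by detection, and a share near 0 on 48 to 154 cells cannot be ordered. Counts of the 4 genes at least 1 cycle apart kept within 1.5 times of the reported count in all 12 comparisons with cells of at least 10 assays, and in 4 to 7 of them under each other setting; the cause was not tested. A kept count can hold other genes: for Tem against Tcm it stayed at 2 under both centrings, but Thy1 and Cd44, higher in Tem, took the place of Ptprc and Cd8a. With a limit of Ct 26 the count was 0 for day 5 against naive, day 5 against day 3 and day 7 against day 5, and 1 for Tcm against naive and day 5 Tsle against Tmp. With no limit it was 4 for day 5 against naive and 2 for first division, day 3 and day 7 against naive, day 7 against day 5 and proximal against distal. Centred on Actb and Gapdh it was 4 for proximal against distal, 3 for Tem against naive, 2 for first division against naive, 1 for day 5 Tsle against Tmp and 0 for day 5 and Tcm against naive, day 5 against day 3 and day 7 against day 5. Centred on R18s and Actb it was 4 for proximal against distal, 3 for Tem against naive, 1 for day 7 against naive, day 5 against day 3 and day 5 Tsle against Tmp, and 0 for first division, day 5 and Tcm against naive. In detected cells alone it was 3 for proximal against distal, 2 for day 5 and Tem against naive and day 7 against day 5, and 1 for day 3 and day 7 against naive. The earlier columns alone gave 1 for day 3 and day 7 against naive and day 7 Tsle against Tmp, and 0 for day 5 against naive and day 7 against day 5. The later columns alone gave 3 for day 5 against naive, 2 for day 7 against day 5 and proximal against distal, and 1 for day 3 and Tcm against naive. When centred on Actb and Gapdh, the 2 genes of first division against naive were Thy1 and Cd44, and when centred on R18s and Actb the 1 gene of day 5 against day 3 and of day 5 Tsle against Tmp was Cd44. In Tem against naive the 3 genes under each centring were Cd8a, Thy1 and Cd44, higher in Tem. Centring also shifts cells at 0, so such calls of genes missing in most cells follow the reference assays. Called differences that turned were Ptprc in Tem against naive (0.37 cycles, R18s and Actb), in day 5 against day 3 (-0.19, R18s and Actb, and -0.43, later columns) and in proximal against distal (0.18, no limit). The called Cd8a difference of Tem against Tcm also turned (0.34, Actb and Gapdh, and 0.93, R18s and Actb). Cd8a was missing in 64.0% of Tem and 37.7% of Tcm cells, so centring cannot decide that call. Past the limit of 28, the share was 0% for Cd8a in day 5 Tmp, 1.20% for Thy1 in proximal and 14.9% in day 7 cells, and 0.699% and 1.49% for Cd44 at days 3 and 7. With at least 10 assays it was 48.9% for Cd8a and 92.6% for Ptprc in Tem, where each of these genes also counts as 1 of the assays. In earlier and later columns it was 50.0 and 70.8% for Cd8a in first-division cells, and for Thy1 19.4 and 38.9% there, 44.4 and 21.1% at day 3 and 76.6 and 54.5% at day 5. Ptprc was at 100% in the earlier day 7 columns, and Cd44 at 0 in the earlier proximal and day 7 Tsle and the later Tem columns and at 1.39% in the later first-division ones. The other shares stayed inside their intervals under these settings. Of 48 differences in level, 46 moved by less than their spread between parts with cells of at least 10 assays, 38 and 32 in the earlier and later columns, 30 with a limit of Ct 26, 10 with none, 10 and 9 when centred on Actb with Gapdh or R18s, and 19 of 38 in detected cells. No paired analysis was possible because each population is 1 sample.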
